A study of Caenorhabditis elegans with 4 samples.

Results

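The regions described here are the peaks on chromosome X of RPC-1, which is the largest subunit of the nuclear RNA polymerase called Pol III, in the nematode Caenorhabditis elegans. Every peak that the series-wide list places on X was taken, which gave 466 of the 1651 peaks of that list, 1648 of them on nuclear chromosomes. The lists of the individual ChIP libraries held 466 of 1671 peaks on X in replicate 1 and 413 of 1452 in replicate 2. The worms were wild-type larvae of strain N2 at the L3 stage, grown at 20 °C as a mixture of males and hermaphrodites, and RPC-1 was recovered with an affinity-purified rabbit polyclonal antibody. There were 2 ChIP and 2 input libraries, and no values of the input libraries were analysed here. Males of this species carry a single X and hermaphrodites carry a pair, and the proportion of males is not stated in the labels. A level on X therefore cannot be set against one on an autosome per gene copy.

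Pol III makes tRNAs, 5S rRNA and a few other short RNAs. At tRNA genes it is recruited through the promoter elements inside the gene, which the factor TFIIIC binds before TFIIIB and the polymerase join. Because such genes are short, a bound gene is seen as a narrow peak, and neighbouring genes can give neighbouring peaks. X is rich in tRNA genes in this worm. Near its left end lies the meiotic pairing centre, where the zinc-finger protein HIM-8 binds and through which the X homologues pair.

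Coordinates are 1-based on WormBase WS220, and the position of a peak is its centre. X was divided into a left, a middle and a right segment, each of 5.91 Mb, with borders at 5.91 and 11.8 Mb from the left end of its 17.7 Mb. The left segment holds the pairing centre. Each peak has a score that the authors' caller gave it. The series-wide scores ran from 1.32 to 173.72 and those of the replicate lists from about 50 to 3233.06, so scores were compared within a list only. The read depth is unknown. The labels do not state how the series-wide list was made from the libraries, so it was not taken as independent of the replicate lists. Nor do they say whether the ChIP libraries came from separate cultures. No WS220 genome or annotation was used here, so the regions are given by coordinate, without sequence or gene names.

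The right segment of X held the most peaks. It contained 192 of the 466 series-wide peaks (41.2%, exact 95% interval 36.7 to 45.8), the left segment 144 (30.9%, 26.7 to 35.3) and the middle segment 130 (27.9%, 23.9 to 32.2). This corresponds to 32.5, 24.4 and 22.0 peaks per Mb. Against an even share of 33.3%, the excess in the right segment and the deficit in the middle segment passed an exact binomial test (adjusted p = 0.00118 and 0.0183 over the 3 segments), and the left segment did not pass it (adjusted p = 0.28 in the exact test).

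Both libraries gave this order. The right segment held 42.5% of X peaks in replicate 1 and 43.3% in replicate 2 (42.9% ± 0.603, SD, n = 2). The middle segment held 26.0% and 25.2% (25.6% ± 0.554, SD, n = 2), and the left segment 31.5% in each (31.5% ± 0.0481, SD, n = 2). The spread between the libraries was thus far smaller than the distance between the right segment and the other segments. When peaks with less than the median series-wide score were left out, the order of the lower segments was exchanged. The middle segment then held 88 of 267 peaks (33.0%, exact binomial test, adjusted p = 0.948) and the left segment 60 (22.5%, adjusted p = 0.000233 in the exact test). The right segment held 119 of them (44.6%).

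As 1 set, chromosomes II to V had similar shares, but singly they differed. The left segment held 31.0% of their 956 peaks, the middle 28.6% and the right 40.5%. The right segment held the most on IV (46.1%) and V (48.1%). Chromosome II was nearly even, with 32.1, 33.2 and 34.8% from left to right, and III ran the other way, with 40.7, 31.0 and 28.2%. The left share of X did not differ from that of II to V in Fisher's exact test (odds ratio 0.997, p = 1). In that stronger set the left segment held 22.5% on X and 30.5% on II to V (odds ratio 0.66, Fisher's exact test, p = 0.0202).

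**Figure D1:**
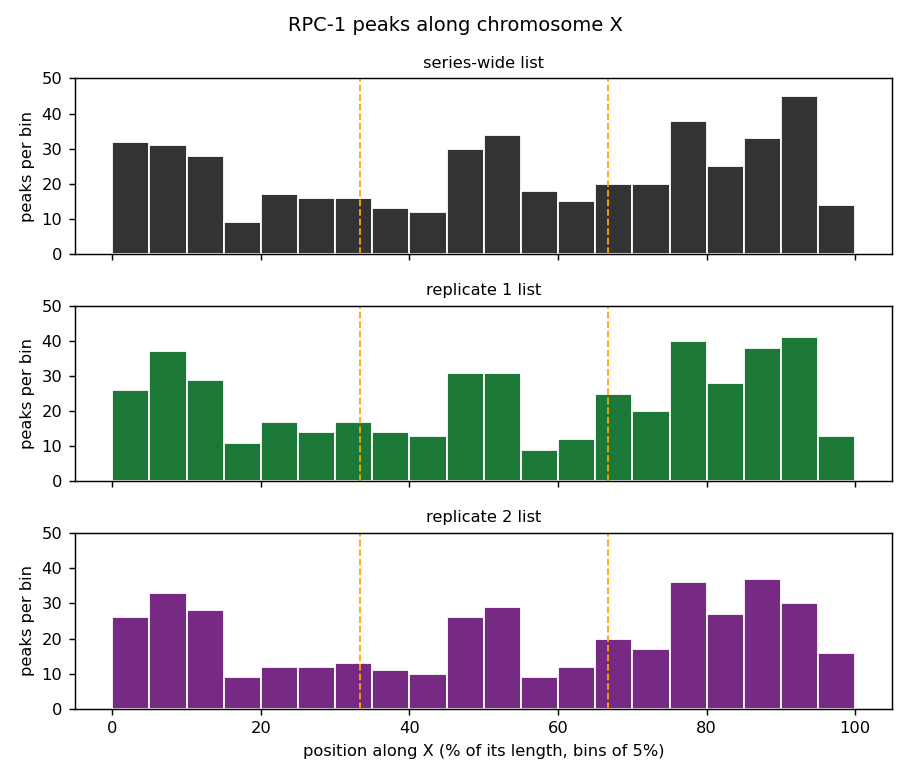
Number of RPC-1 peaks in 20 bins of 5% of the length of X, for the series-wide list and each replicate list; dashed lines mark the borders of the segments. In all 3 lists peaks were most frequent in the first 3 bins, around the middle and between 75 and 95% of the length.

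At finer scale, peaks fell into several dense stretches with sparser ones between them. Windows of 0.5 Mb held a median of 12 series-wide peaks, and none of the 36 windows was empty. The fullest window ran from 1.5 to 2.0 Mb and held 32 peaks (35 in replicate 1 and 33 in replicate 2). The next were the window from 0 to 0.5 Mb, with 27 (20 and 22 in the replicates), and that from 16.0 to 16.5 Mb, with 27 (24 and 16). The first and last of these differed in score, with medians of 25.99 from 1.5 to 2.0 Mb and 124.56 from 16.0 to 16.5 Mb. In the latter window, 20 of the 27 peaks lay within 2000 bp of another.

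The 3 longest stretches without a peak centre lay outside the right segment. The longest ran from the peak ending at 3036381 to the one starting at 3347857, a centre-to-centre distance of 312 kb. Replicate 1 had 1 peak inside it, with a score of 68.98, and replicate 2 had none. Between 9744016 and 10018224 (275 kb between centres) replicate 2 alone had 1 peak, with a score of 357.77. Between 6601492 and 6866945 (266 kb between centres) neither library had a peak.

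Peak scores were lower in the left segment than in the rest of X. The median series-wide score was 43.73 in the left segment (quartiles 14.71 and 125.55), 115.86 in the middle segment (33.90 and 150.35) and 105.93 in the right segment (33.34 and 146.76). Of the left segment's 144 peaks, 50 (34.7%) reached the X median of 95.08, and of the other 322 peaks 183 did (56.8%). The odds ratio was 0.404 (Fisher's exact test, adjusted p = 5.85e-05 over 4 comparisons of the left segment with the rest of X). In replicate 1 the medians were 569.5, 2165 and 1473 from left to right, and in replicate 2 they were 1493, 3100 and 2920.5. The corresponding odds ratios were 0.400 in replicate 1 and 0.457 in replicate 2 (adjusted p = 2.06e-05 and 0.000619, Fisher's exact test). In replicate 2 the value of 3100 is one that many peaks share, and 73 of its 104 peaks in the middle segment reached or passed it.

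The low scores of the left segment lay mainly in its outer part, a division made after the values had been seen. In the first 3 Mb of X, 97 peaks had a median score of 37.17, and 24 of them (24.7%) reached the X median. In the remainder of the left segment, 47 peaks had a median of 102.13, and 26 of them (55.3%) reached it. These stretches also differed in density, with 32.3 and 16.2 peaks per Mb. The replicate lists showed the same pattern. In replicate 1 the median was 515.81 in the first 3 Mb and 1779 in the remainder, and in replicate 2 it was 953.29 and 3100. Neither stretch was uniform in the series-wide list. From 2.5 to 3.0 Mb, 13 peaks had a median of 121.94. From 5.0 to 5.5 Mb, 14 peaks had one of 51.4. From 5.5 to 6.0 Mb, a window that crosses the segment border, 11 peaks had one of 28.57. In replicate 2 the medians of these last windows were high, at 3100 and 3067.41. Without the first 3 Mb, the odds ratio of the left segment against the rest of X was 0.940 (Fisher's exact test, adjusted p = 0.876). The border was set with the scores known, and only 47 left-segment peaks remained. A loss of the difference was thus partly built in, and this test cannot show where the difference lies. With only the stronger series-wide peaks of the whole left segment and the rest of X, 41.7% and 52.7% of them reached the median of that set (odds ratio 0.642, adjusted p = 0.193, Fisher's exact test).

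Low scores were also found outside the left segment. In the middle segment, 16 peaks from 10.0 to 10.5 Mb had a median score of 13.55, the lowest of the 0.5 Mb windows. Of these peaks 10 lay in runs, and the window's medians in the replicate lists were 2164.76 and 3100. From 9.0 to 9.5 Mb, 21 peaks had a series-wide median of 47.13. In the right segment, 13 peaks from 14.5 to 15.0 Mb had a median score of 34.41. From 15.0 to 15.5 Mb 20 peaks had one of 38.06, and from 15.5 to 16.0 Mb 16 peaks had one of 46.27. The windows of 0.5 Mb on either side, from 14.0 and from 16.0 Mb, had medians of 128.56 and 124.56. The weak stretches at both flanks were not empty of strong peaks, since 2 of the highest-scoring regions of X lay within the first 0.5 Mb and 2 between 14.5 and 16.0 Mb.

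**Figure D2:**
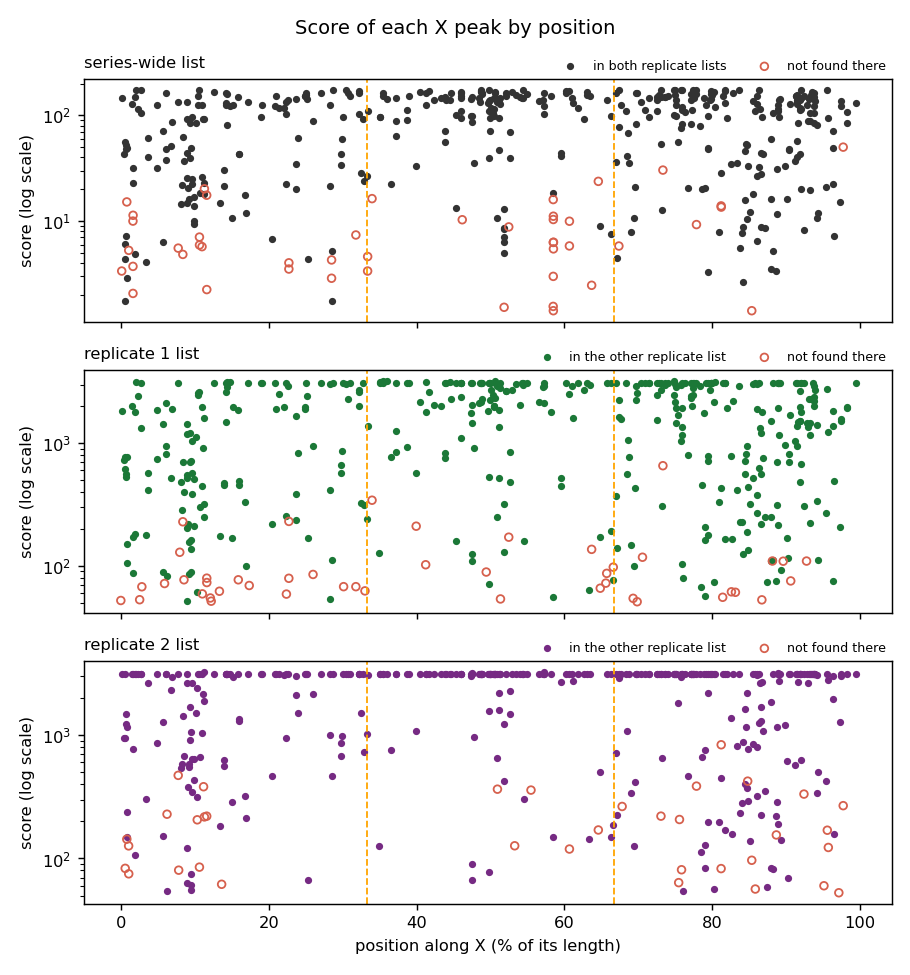
Score of each X peak (log scale) against its position as a percentage of the length of X, for the 3 lists; filled points are peaks found in both replicate lists (upper panel) or in the other replicate list (lower panels), open points are the others, and dashed lines mark the segments. Low scores gathered in the outer part of the left segment, between about 80 and 90% of the length and, in the series-wide list, near 58.5%. In the replicate lists many peaks share the score of 3100.

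The 13 X peaks at the highest series-wide score, of 23 on all chromosomes, show what the strongest regions look like. In the left segment they were X:353070-353551, X:489625-490089 and X:5085368-5085897. In the middle segment they were X:8638425-8639344 and X:9637543-9638082. The other 8 lay in the right segment, 4 of them between 13 and 14 Mb, at X:13260944-13261390, X:13448435-13449062, X:13716937-13717357 and X:13781324-13781791. The last 4 were X:14476547-14477715, X:14804615-14805029, X:15297163-15297723 and X:16928039-16928431. Their widths ran from 393 to 1169 bp, with a median of 482 bp.

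Both libraries had each of these regions. In replicate 2 all 13 scored 3100. In replicate 1, 9 scored 3100 or more, with the highest, 3189.33, at X:353070-353551. The other 4 were weaker there, with 2461.01 at X:13260944-13261390, 2785.45 at X:16928039-16928431, 2813.12 at X:13716937-13717357 and 2939.89 at X:14804615-14805029. Of the 13 regions, 5 had a neighbouring peak within 2000 bp, and the others stood alone.

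Peaks of X scored higher than those of chromosomes II to V, and the difference passed in the middle and right segments but not in the left. Over all positions, 263 of the 466 X peaks (56.4%, 51.8 to 61.0) and 449 of the 956 peaks of II to V (47.0%, 43.8 to 50.2) reached their common median of 72.91 (odds ratio 1.46, Fisher's exact test, adjusted p = 0.00171 over 4 comparisons of X with II to V). Per chromosome the share was 51.3% on II, 50.9% on III, 46.9% on IV and 41.4% on V, all below that of X. In the replicate lists the X share was 55.2% and 55.9%. Chromosome III came to 54.0% in replicate 1 and, at 57.6%, was above X in replicate 2.

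The comparison was then made within each segment, a choice made after the values had been seen. In the middle segments, 66.2% of X peaks and 51.3% of those of II to V reached the common median (odds ratio 1.86, Fisher's exact test, adjusted p = 0.0106). In the right segments the shares were 61.5% and 43.9% (odds ratio 2.04, Fisher's exact test, adjusted p = 0.000195). In the left segments they were 41.0% and 47.0%, so that X was nominally lower (odds ratio 0.784, Fisher's exact test, adjusted p = 0.358). These p values were adjusted over the 4 comparisons of X with II to V and not over the 3 segments. Whether the odds ratios differ between the segments was not tested. On II to V as 1 set, 48.6% of left-segment peaks and 50.6% of the others reached their own median. On each of these chromosomes the left share was the lower, as on X. The shares were 48.3% and 58.3% on II, and on III, IV and V they differed by less.

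X peaks were also wider. The median width was 364.5 bp on X, and between 314.5 bp (IV) and 335 bp (III) on II to V. Of the X peaks 277 (59.4%) and of the others 433 (45.3%) were wider than the common median of 335 bp (odds ratio 1.77, Fisher's exact test, adjusted p = 2.52e-06). The shares on single autosomes ran from 40.6% on IV to 50.0% on III. The difference was smaller in the replicate lists. In replicate 1, 53.6% of X peaks and 48.1% of the others were wider than their median (odds ratio 1.25, Fisher's exact test, adjusted p = 0.0656), so that the call was lost there, and III reached 54.5%. In replicate 2 the shares were 54.2% and 47.7% (odds ratio 1.30, Fisher's exact test, adjusted p = 0.0414), and III reached 56.5%.

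Width varied with position much as the score did. Median widths were 331, 390 and 355.5 bp from the left to the right segment in the series-wide list, 429, 613 and 529 bp in replicate 1, and 1202, 1355 and 1295 bp in replicate 2. In the left segments, 47.2% of X peaks and 43.6% of those of II to V were wider than the common median (odds ratio 1.16, Fisher's exact test, adjusted p = 0.477). In the middle segments the shares were 70.8% and 52.7% and in the right segments 60.9% and 41.3% (odds ratios 2.17 and 2.21, Fisher's exact test, adjusted p = 0.00306 and 3.85e-05). As for score, this choice was made after the values had been seen, and the adjustment was not over the segments. Within X the left segment did not pass against the rest in the series-wide list (odds ratio 0.641, Fisher's exact test, adjusted p = 0.0702). It passed in each replicate list (odds ratios 0.400 and 0.351, Fisher's exact test, adjusted p = 2.06e-05 and 7e-06). Without the first 3 Mb, the direction in the series-wide list turned, with 55.3% and 53.4% of peaks wider than the X median (odds ratio 1.08, Fisher's exact test, adjusted p = 0.876). That border was set after the values had been seen, so this test cannot show where the difference in width lies. Width and score were related across the 466 X peaks, which share libraries and are not independent (Spearman's rho 0.583). In the stronger set alone, X peaks were the wider (odds ratio 1.59, Fisher's exact test, adjusted p = 0.00682), but score was not held equal there. In that set 64.0% of X peaks and 41.8% of those of II to V reached its median score (odds ratio 2.48, Fisher's exact test, adjusted p = 4.19e-08).

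Neighbouring peaks are not independent, and each was counted as a unit in these tests. With 1 peak kept per run of neighbours, the odds ratios of X against II to V were 1.74 for score and 1.87 for width (Fisher's exact test, adjusted p = 4.19e-05 and 7e-06). Taking chromosomes as units, X could be ranked among only 5, for which the smallest possible exact p is 0.2.

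**Figure D3:**
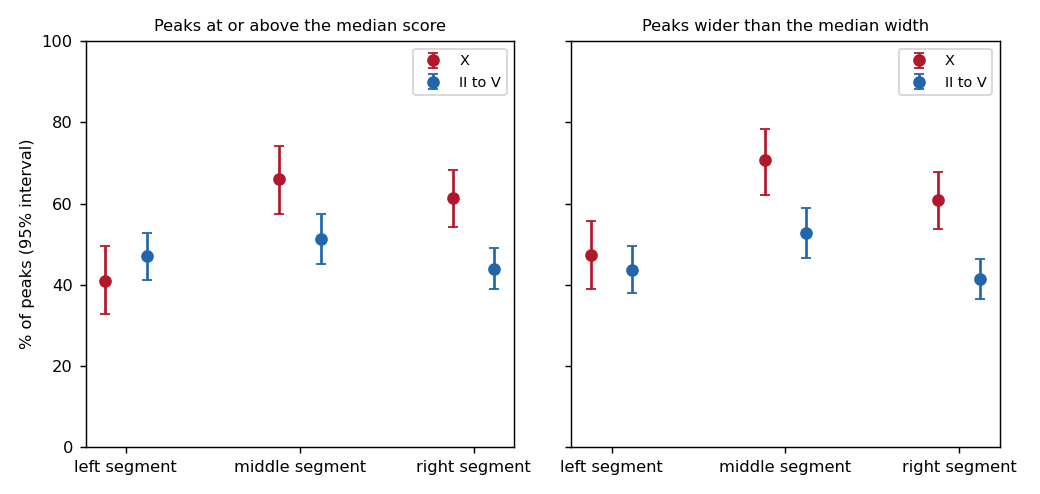
Percentage of series-wide peaks at or above the common median score of X and II to V (left panel) and wider than their common median width (right panel), by segment of the chromosome, with exact 95% intervals. X lay above II to V in the middle and right segments. The intervals overlapped in the left segment in both panels and, for score, narrowly in the middle segment.

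The widest peaks of X were weak. The 5 widest were X:291961-295256 (3296 bp, score 11.35), X:14384837-14387839 (3003 bp, 13.92), X:14387909-14389595 (1687 bp, 13.56), X:112554-114099 (1546 bp, 7.26) and X:10366466-10367904 (1439 bp, 5.46). All were below the first quartile of X scores, 21.57. Replicate 1 had a peak at 1 of these regions, X:109499-114320, of 4822 bp. Replicate 2 overlapped all 5 with broad regions of 3898 to 8648 bp. Its scores in these broad regions differed widely, from 149.08 at X:10360702-10369349 and 832.67 at X:14385923-14389820 to 3100 at X:289051-295733 and X:108858-114641. The peak X:14384837-14387839 also overlapped a narrower replicate 2 peak, X:14384846-14385918, of 1073 bp and a score of 82.8. In the series-wide list 11 of the 466 X peaks and 18 of the 956 peaks of II to V reached 1000 bp.

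Neighbouring peaks often formed runs, here defined as peaks whose centres followed each other at 2000 bp or less. Of the 466 X peaks 185 (39.7%, 35.2 to 44.3) lay in 74 runs, of which 53 were pairs, 14 had 3 peaks, 3 had 4 and 4 had 5 or more. On II to V 36.6% of peaks lay in runs, and the difference did not pass (odds ratio 1.14, Fisher's exact test, adjusted p = 0.268). With a link of 1000 bp the shares were 26.2% and 20.2%, and with 10000 bp they were 63.3% and 55.4%. At these distances the difference did pass (odds ratios 1.40 and 1.39, Fisher's exact test, adjusted p = 0.0158 and 0.00671). It did not pass at the intermediate link of 5000 bp (52.6% and 47.8%, odds ratio 1.21, Fisher's exact test, adjusted p = 0.135), nor with 2000 bp measured between peak edges (odds ratio 1.19, adjusted p = 0.143 in the exact test). The replicate lists, whose peaks are wider, had fewer runs. In replicate 1 28.8% of X peaks and 27.9% of those of II to V lay in runs, and in replicate 2 the shares were 13.1% and 10.8%. Neither difference passed (odds ratios 1.04 and 1.25, Fisher's exact test, adjusted p = 0.755 and 0.224).

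Runs of strong peaks and runs of weak ones were both present. The largest, X:10361279-10369093, had 10 peaks with scores from 1.42 to 18.55, of which 1 was found in both replicates. Replicate 2 drew the whole of it as 1 region of 8648 bp. Next was X:8151453-8156827, in which 5 peaks scored 94.01, 151.87, 162.6, 110.57 and 166.37 and all were found in both replicates. Replicate 1 had 4 peaks there and replicate 2 had 2, and the highest score was 3100 in each. The run X:16298050-16300723 was of the same kind, with 4 peaks of 116.02 to 172.8, all in both replicates.

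Another 5-peak run, X:288296-291562, fell from 31.54 at its left end to 2.07 at its right end and lay just left of the widest X peak. In X:9184920-9188002 the 5 peaks scored 1.53 to 8.34, and each replicate had 1 region there. Over all 74 runs the median of the highest score was 115.85 and that of the second highest 47.73. In 54 runs the second peak reached at least 0.5 of the highest, and in 3 it was below 0.1. The peaks in runs had a median score of 77.74 and the 281 single peaks one of 98.32.

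The left segment had 54 of its 144 peaks in runs (37.5%), the middle segment 55 of 130 (42.3%) and the right segment 76 of 192 (39.6%). The left segment against the rest gave an odds ratio of 0.875 (Fisher's exact test, adjusted p = 0.54). Its direction was the opposite in both replicate lists, with odds ratios of 1.09 and 1.60 that did not pass either (Fisher's exact test, adjusted p = 0.741 and 0.119).

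Once distances were scaled to the density of each chromosome, close neighbours were not more frequent on X than on II to V. The median distance to the next centre was 17205.5 bp on X and from 22929.5 bp (III) to 44912 bp (II) on the others, at densities of 26.3 peaks per Mb on X and 14.2 on II to V. Distances under 0.1 of the mean of their own chromosome made up 28.6% on X and 32.6% on II to V (odds ratio 0.830, Fisher's exact test, adjusted p = 0.191). In replicate 1 the shares were 20.0% and 27.1%, and in replicate 2 15.3% and 21.9%. In each of these lists close spacing was less frequent on X and the difference passed (odds ratios 0.671 and 0.645, Fisher's exact test, adjusted p = 0.0134 and 0.0131). In the series-wide list II, with 27.4%, was below X, whereas in both replicate lists all 4 autosomes were above it. These directions depended on the set and on the bound. Among the stronger series-wide peaks the shares were 27.4% and 27.3% (odds ratio 1.01, Fisher's exact test, adjusted p = 1), and with bounds of 0.2 and 0.5 of the mean the odds ratios were 0.944 and 1.01 (adjusted p = 0.642 and 0.955, Fisher's exact test). Merging peaks up to 2000 bp apart gave 9.04% and 15.7% (odds ratio 0.533, Fisher's exact test, adjusted p = 0.00329). Merging removes all distances up to that length, a larger part of the scaled range on the denser X, so a lower share on X is partly built in. The least distance that wide peaks allow acts the same way in the replicate lists, and its size there was not tested.

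**Figure D4:**
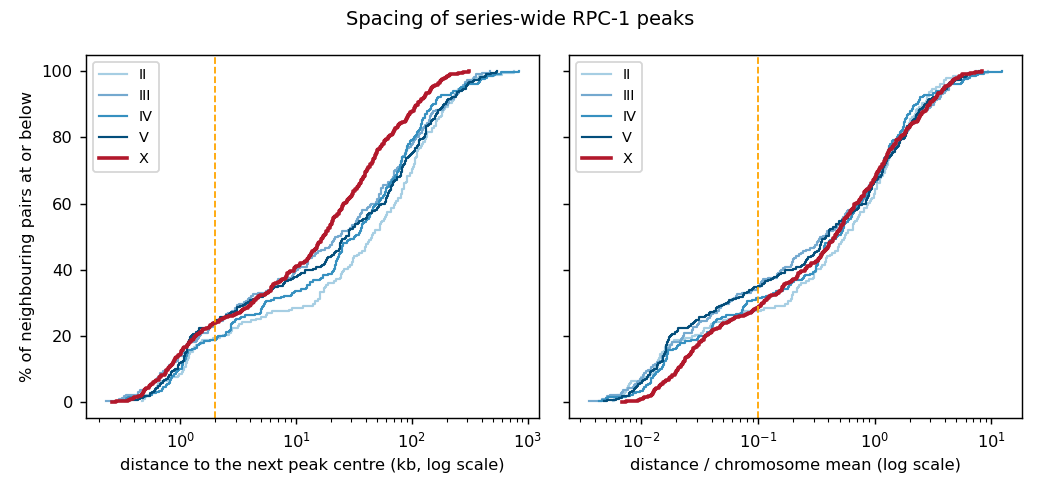
Cumulative percentage of neighbouring series-wide peaks by centre-to-centre distance (left, kb, log scale) and by the same distance divided by the mean of its chromosome (right, log scale), for X and II to V; dashed lines mark 2000 bp and 0.1. X lay to the left of the autosomes at long distances in kb, and at short scaled distances it lay at or below most of them.

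Support from the separate libraries was highest in the right segment. Of the 192 peaks there 185 (96.4%, 92.6 to 98.5) overlapped a peak of both replicates by at least 1 bp, against 124 of 144 (86.1%, 79.4 to 91.3) in the left segment and 111 of 130 (85.4%, 78.1 to 91.0) in the middle segment. The left segment against the rest did not pass (odds ratio 0.545, Fisher's exact test, adjusted p = 0.0853). Without the run of 10 weak peaks in the middle segment, a setting added later, it did (odds ratio 0.357, Fisher's exact test, adjusted p = 0.00619). Only 1 of these 10 peaks was found in both libraries. Leaving them out of the comparison group raised its share by construction, so no conclusion was drawn from that value. The left segment also passed against the rest when support from replicate 2 alone was asked for. The shares were 93.1% of left-segment peaks and 97.8% of the others (odds ratio 0.298, Fisher's exact test, adjusted p = 0.0211). With support from replicate 1 alone it did not pass (89.6% and 93.2%, odds ratio 0.631, Fisher's exact test, adjusted p = 0.263), nor with an overlap of 50% (odds ratio 0.567, adjusted p = 0.126 in the exact test). When centres had to lie within 200 bp the direction turned, with 66.7% and 62.1% (odds ratio 1.22, Fisher's exact test, adjusted p = 0.54). When each segment was set against the others, a test added after the values had been seen, the right segment passed (odds ratio 4.39, Fisher's exact test, adjusted p = 0.00034 over 3 segments). On II to V, 84.8% of the left-segment peaks and 83.5% of the others were found in both. Their right segments came to 84.5% as 1 set, with 98.5% on II, 68.9% on III, 81.4% on IV and 87.4% on V. High support in the right segment was thus also seen on II, where it was above that of X. Over all positions the shares were 90.1% on X and 83.9% on II to V.

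All 233 X peaks at or above the X median score were found in both replicates, so the segments differed among weaker peaks. Below the median, 81 of 88 peaks were supported in the right segment (92.0%, 84.3 to 96.7), 74 of 94 in the left (78.7%, 69.1 to 86.5) and 32 of 51 in the middle (62.7%, 48.1 to 75.9). Score was not held equal among these weaker peaks, and X peaks not found in both replicates had a median score of only 5.88. Whether support differs between segments at like score was not tested. The middle segment is the one that holds the 10-peak run. That run lay within 1 region of replicate 2, and 9 of its peaks overlapped no peak of replicate 1.

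In all, 46 X peaks were not found in both lists. Of these, 9 were found in replicate 1 only, 29 in replicate 2 only and 8 in neither, with median scores of 4.84, 7.06 and 4.46. The 420 supported peaks had a median of 105.93. The strongest peak found in replicate 1 only was X:12990735-12990994 (score 30.37, and 656.37 in that library), followed by X:6020144-6020371 (16.31) and X:9296646-9296831 (8.81). Those found in replicate 2 only were led by X:17311413-17311822 (50.06, and 267.65 in that library), X:11442720-11443687 (23.76) and X:2002780-2003432 (20.2). The strongest found in neither were X:8181891-8182148 (10.3), X:1885582-1885779 (5.94) and X:1945650-1945834 (5.73). The first peak of the chromosome, X:21336-21481 (3.37), was also found in neither, whereas the last, X:17611004-17611597 (130.06), was at the score of 3100 in both libraries.

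Compared directly, 45 X peaks of replicate 1 and 36 of replicate 2 overlapped no peak of the other library. In replicate 1, 22 of the 45 lay in the left segment, 11 in the middle and 12 in the right, with a median score of 72.92. In replicate 2, 13 of the 36 were in the left segment, 5 in the middle and 18 in the right, with a median of 162.22. The strongest were X:12990673-12991110 (656.37), X:6020069-6020459 (343) and X:4026630-4029266 (230.31) in replicate 1. In replicate 2 they were X:14385923-14389820 (832.67), X:1374667-1375821 (470.82) and X:15022065-15023229 (422.65). Only the last of these 6 overlapped no series-wide peak.

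At places where a single peak of one library met a single peak of the other, the scores ran in parallel along X. Over 340 such pairs, which share the same 2 libraries, Spearman's rho was 0.880 and Pearson's r 0.902. By segment rho was 0.884 (110 pairs) on the left, 0.737 (89 pairs) in the middle and 0.907 (141 pairs) on the right. These values rest in part on ties, because in replicate 2 the scores of 177 of the 340 peaks were at or above the shared value of 3100, and in replicate 1 those of 80. In replicate 2 this applied to 45 of the 110 on the left, 64 of the 89 in the middle and 68 of the 141 on the right. Strong peaks could therefore hardly be ranked. Replicate 2 drew the wider peak in all 340 pairs, by a median of 2.28 times, and the centres differed by a median of 23.75 bp. Of its 413 X peaks, 57 contained or touched at least 2 series-wide peaks.

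The order of tRNA genes on X gives a view of the likely Pol III genes that does not depend on the peaks, although no peak was assigned to a gene. In the gene table of assembly WBcel235, X has 276 tRNA genes among 5859 genes other than piRNAs. When these genes were cut in order into 3 equal sets, 51 tRNA genes fell in the left set, 104 in the middle and 121 in the right. These sets are of equal gene number and not of equal length, so they do not match the segments of the peaks. The left set had the fewest tRNA genes, while by length the middle segment had the fewest peaks and the left segment the lowest scores. On X 69 tRNA genes (25%) stood next to another in the gene order, and on II to V this share ran from 9.38% (III) to 28.1% (II). These shares were not scaled to the density of tRNA genes, which was higher on X. It was 276 of 5859 genes on X, 57 of 5120 on II and 64 of 3783 on III. The shares therefore do not show whether tRNA genes stand together more often on X than their density gives.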

How the data were processed

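RPC-1 ChIP-seq peak lists were analysed for each of the 2 ChIP libraries and for the series. The submitters' processing notes name BWA and build ce10. Coordinates are on WormBase WS220, per the file headers. Peaks were called by the authors with MACS (replicates) or MACS v2 (series-wide), per the source column of the deposited files. Each peak's score was deposited as the authors' caller gave it, on a scale that is not stated. Pooling, use of the inputs, filters and thresholds were not given in the sources used here.

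Peaks were read with Python 3.11.15, pandas 2.3.3 and numpy 2.4.6, and tested with scipy 1.17.1. Samples were grouped by title. The length of X was 17.7 Mb, and for other chromosomes the end of the last peak of any list was used. The 3 segments of equal length were tested with an exact binomial test. Two-sided Fisher's exact tests compared shares, and p values were adjusted by Benjamini-Hochberg within each family. Where an alternative did not apply to a comparison, that comparison entered its family with its unaltered p. Intervals are Clopper-Pearson, 95%, and cover counting error only. The functions were tested on simulated data. Regions were named by a rule (highest score, widest peaks, largest runs, longest stretches without peaks, fullest windows, strongest peaks without support). The members, lists and tests were chosen with earlier results of these data known. Chromosome I entered only an alternative. Genes on WS220 were not analysed here.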

Additional observations from a re-analysis of the deposited data

How the results depend on the processing

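Of 85 alternative values planned with the tests, 64 kept the direction and the side of the 0.05 threshold, as did 5 of the 10 added later. The others follow, and their causes were not tested. With peaks at or above the median score, the left and middle segments held 22.5% and 33.0% of X peaks, the left segment against II to V gave an odds ratio of 0.66, scaled spacing one of 1.01 and the score of the left segment one of 0.642. With I to V as comparison the left-segment share gave 1.02. Runs passed with links of 1000 bp (1.40) and 10000 bp (1.39), and runs in the left segment turned to 1.14 and 1.08 with links of 5000 and 10000 bp. Scaled spacing was 0.533 after merging and 1.01 at a bound of 0.5. In the left segments alone, X against II to V gave 0.784 for score and 1.16 for width. Without the first 3 Mb the left segment gave 1.08 for width and 0.940 for score. Its support gave 1.22 with centres within 200 bp and 0.357 without the 10-peak run. With the list of a single replicate in place of the series-wide list, odds ratios were 0.645 to 0.671 for scaled spacing and 1.25 to 1.30 for width on X. In the left segment they were 1.09 to 1.60 for runs and 0.351 to 0.400 for width. Support of series-wide peaks from 1 replicate alone gave 0.298 to 0.631 there. At or above the median score all X peaks had support, so no odds ratio could be given there. No paired analysis was possible because lists of the inputs, which share the replicate numbers, were not analysed here. The depth is unknown, so its bearing on weak peaks cannot be given.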
